A study of Mus musculus with 12 samples.

Results

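Rhox5, Rhox6 and Rhox9 are homeobox genes of the reproductive homeobox (Rhox) cluster on the mouse X chromosome. They were taken as the rows with exactly these 3 symbols among the 24627 genes counted in each library, of which 31 carry a Rhox symbol and 1071 are X-linked. RNA-seq of total RNA was available for 12 libraries from J1 cells, a mouse embryonic stem (ES) cell line with a single X chromosome, in which a TetO promoter placed at the endogenous Xist locus is switched on by doxycycline (DOX). The 3 lines carried full-length Xist (XistTetOP_FL, here Xist FL), Xist without the A repeat (XistTetOP_delA, Xist ΔA) or Xist without the B and C repeats (XistTetOP_delBC, Xist ΔB+C). Each line was differentiated for 2 days by withdrawal of LIF with 1.5 µg/ml DOX or without it (noDOX), with 2 replicates in each of the 6 groups. Xist ΔB+C was derived from the inducible line by genome editing, Xist ΔA was an older line made separately, and no clone is named for these libraries, so that a deletion and other properties of its line cannot be told apart.

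Homeobox genes encode transcription factors that bind DNA through a homeodomain. The Rhox cluster is best known from the testis, ovary and placenta, and many of its genes are kept silent in somatic cells by DNA methylation of their promoters. Rhox5, formerly Pem, is the founding member; it is expressed in ES cells, trophectoderm and Sertoli cells and has a proximal and a distal promoter, the distal one being bound by Ets family and Sp factors. Rhox6 and Rhox9, formerly Psx1 and Psx2 (Gpbox), are paralogs that are expressed in placenta and germ cells. Xist RNA coats the X chromosome and silences its genes; the A repeat is needed for this silencing, and the B and C repeats for recruitment of Polycomb complexes.

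The 3 genes lie within 147 kb of one another on chromosome X (RefSeq, GRCm38.p6, the patched form of the mm10 build used for counting). Rhox5 is at chrX:37754608-37808878 on the plus strand, Rhox6 at chrX:37827055-37829857 on the plus strand and Rhox9 at chrX:37899097-37901770 on the minus strand. In the GENCODE transcripts compared here, each had 4 exons, and the coding length was 639 bases in Rhox5 and 681 bases in Rhox6 and in Rhox9. The internal coding exon 3, of 46 bases in all of them, shows how the family members are related. In the following lines capitals mark the 27 positions at which the 3 genes carry the same base; Rhox6 and Rhox9 were identical at 45 positions of this exon.
Rhox5: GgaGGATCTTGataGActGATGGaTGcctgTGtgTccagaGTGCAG
Rhox6: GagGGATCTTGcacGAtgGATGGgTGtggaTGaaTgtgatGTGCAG
Rhox9: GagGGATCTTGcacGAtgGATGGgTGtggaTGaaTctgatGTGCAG
Exon 3 is at chrX:37806074-37806119 in Rhox5, chrX:37828415-37828460 in Rhox6 and chrX:37900280-37900325 in Rhox9.

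Rhox6 and Rhox9 are similar enough that the mapping bears on their counts. Their coding sequences were identical at 617 of 681 bases (90.6%), and the longest run they shared was 161 bases, against 15 bases for Rhox5 with Rhox6 and 14 for Rhox5 with Rhox9. Of the 150-base windows in the Rhox6 and Rhox9 transcripts, the length of 1 sequenced read, 12 were common to both, out of 861 and 733. None of the 605 windows of Rhox5 occurred in either. A read from a shared window is placed at 1 of the possible sites by the mapping used, so that the split between Rhox6 and Rhox9 is less certain than their sum. The coding part of exon 4, of 93 bases, tells them apart best by eye, with capitals at the 19 positions that differ.
Rhox6: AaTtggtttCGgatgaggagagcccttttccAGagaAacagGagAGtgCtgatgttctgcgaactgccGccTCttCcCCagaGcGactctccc
Rhox9: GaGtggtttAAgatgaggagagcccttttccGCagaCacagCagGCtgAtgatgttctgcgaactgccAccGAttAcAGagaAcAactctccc
These bases are at chrX:37829624-37829716 for Rhox6 and at chrX:37899207-37899299, minus strand, for Rhox9.

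The 300 bases from 250 before to 50 after the annotated Rhox5 start, chrX:37754358-37754657 on the plus strand (RefSeq, GRCm38.p6), are printed because this is the only member with an entry in the promoter table. Capitals mark the match to the Ets letters CCGGAAG, read here as their reverse complement CTTCCGG.
Rhox5 promoter: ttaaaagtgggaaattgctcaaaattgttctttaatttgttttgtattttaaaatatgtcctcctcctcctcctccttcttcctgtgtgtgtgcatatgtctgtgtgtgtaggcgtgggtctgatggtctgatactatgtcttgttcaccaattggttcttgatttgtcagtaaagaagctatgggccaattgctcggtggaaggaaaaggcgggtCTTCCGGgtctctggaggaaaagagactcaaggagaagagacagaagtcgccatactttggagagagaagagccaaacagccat
The match begins 34 bases before the start. On either strand the same letters occurred in 8.86% of 32851 promoters of this length, and in 8 of the 27 Rhox promoters in the table. Neither the Sp1 letters GGGCGG, present in 35.7% of promoters, nor the E-box CACGTG, present in 7.15%, was found in this window. It holds 5 CpG dinucleotides, against a median of 7 over all promoters. Searches were made on both strands, the motifs overlap nowhere in this window, and a match is a description of letters only. Whether this window belongs to the proximal or the distal promoter of Rhox5 was not determined.

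Library totals ranged from 31337490 to 41240470 counts, and no pair of libraries held identical counts. Xist had 84 to 268 counts in the 6 noDOX libraries and 18358 to 71348 in the 6 DOX libraries, so that the induction followed the labels in every library. For the Xist ΔB+C DOX replicate 2 library 100 ng of RNA went into a low input preparation, whereas every other library started from 1000 ng. Defining ES cell markers were present: Pou5f1 had 1149 CPM or more in every library and Sox2 282 or more. The lowest values of the less abundant ones were 86.0 for Nanog, 68.7 for Zfp42, 18.1 for Esrrb and 17.3 for Tfcp2l1. Of the fibroblast markers Lum had at most 0.0794 CPM, Dcn 1.51, Col3a1 2.13, Col1a2 6.05 and Col1a1 38.1. The ES cell markers Klf4 (4.62 to 16.9 CPM) and Tbx3 (7.02 to 20.5 CPM) stayed below this highest value of Col1a1. CPM are counts relative to the scaled total of a library. Replicates carried the same numbers, 1 and 2, in every group, and same-numbered libraries deviated together from their group means (r of 0.399 to 0.820 over 15 pairs of groups), so a fit with the replicate number as a block is given beside a result where it changes the call. The study calls them biological duplicates without saying what was separate between them, and p-values measure the spread between these libraries.

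Rhox5 was the most abundant member and both other members followed its pattern: highest in Xist ΔB+C with DOX, and lowest in Xist ΔA with or without DOX. Without DOX, Rhox5 in Xist FL had 38.7 CPM in replicate 1 and 61.3 CPM in replicate 2, and with DOX 46.9 and 72.2 CPM. In Xist ΔA it had 7.56 and 14.2 CPM without DOX and 8.75 and 18.04 CPM with DOX. The values for Xist ΔB+C were 28.4 and 64.3 CPM without DOX and 51.9 and 109.9 CPM with DOX. Thus Rhox5 was higher in each of the 8 Xist FL and Xist ΔB+C libraries, the lowest of which had 28.4 CPM, than in any of the 4 Xist ΔA libraries, the highest of which had 18.04. In descending order of the means, Rhox5 had 80.9 ± 41.0 CPM in Xist ΔB+C DOX, 59.6 ± 17.9 in Xist FL DOX, 50.0 ± 16.0 in Xist FL noDOX, 46.4 ± 25.4 in Xist ΔB+C noDOX, 13.4 ± 6.57 in Xist ΔA DOX and 10.9 ± 4.69 in Xist ΔA noDOX (SD, n = 2). In that order, only the step from Xist ΔB+C noDOX to Xist ΔA DOX separated neighbouring groups without overlap of their libraries.

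Rhox6 had 6.23 and 8.08 CPM in Xist FL noDOX and 10.0 and 9.83 CPM in Xist FL DOX. In Xist ΔA it had 1.46 and 2.22 CPM without DOX and 1.05 and 2.11 CPM with DOX, the last values resting on 42 and 68 counts. For Xist ΔB+C the values were 4.18 and 9.83 CPM without DOX and 10.9 and 14.9 CPM with DOX. All 4 Xist ΔA libraries were again below the other 8, whose lowest value was 4.18 CPM, and both DOX libraries of Xist FL and Xist ΔB+C were above both noDOX libraries of their line. By group means, Rhox6 went from 12.9 ± 2.82 CPM in Xist ΔB+C DOX through 9.92 ± 0.13 in Xist FL DOX, 7.16 ± 1.31 in Xist FL noDOX and 7.01 ± 3.99 in Xist ΔB+C noDOX to 1.84 ± 0.54 in Xist ΔA noDOX and 1.58 ± 0.75 in Xist ΔA DOX (SD, n = 2). The libraries of Xist FL noDOX and Xist ΔB+C noDOX overlapped, as did those of the Xist ΔA groups, and the other neighbours in this order did not.

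Rhox9 had 7.16 and 9.18 CPM in Xist FL noDOX and 11.2 and 12.4 CPM in Xist FL DOX. Xist ΔA libraries had 2.53 and 4.07 CPM without DOX and 1.45 and 2.67 CPM with DOX. Xist ΔB+C libraries had 5.48 and 14.3 CPM without DOX and 11.9 and 24.2 CPM with DOX. The highest Xist ΔA library, at 4.07 CPM, was below the lowest of the other 8, at 5.48 CPM. Xist ΔB+C noDOX spanned all of the Xist FL noDOX and DOX values. Group means ran from 18.05 ± 8.76 CPM in Xist ΔB+C DOX through 11.8 ± 0.82 in Xist FL DOX, 9.88 ± 6.22 in Xist ΔB+C noDOX and 8.17 ± 1.43 in Xist FL noDOX to 3.30 ± 1.09 in Xist ΔA noDOX and 2.06 ± 0.86 in Xist ΔA DOX (SD, n = 2). Among neighbours in this order, only Xist FL noDOX and Xist ΔA noDOX were free of overlap.

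**Figure D1:**
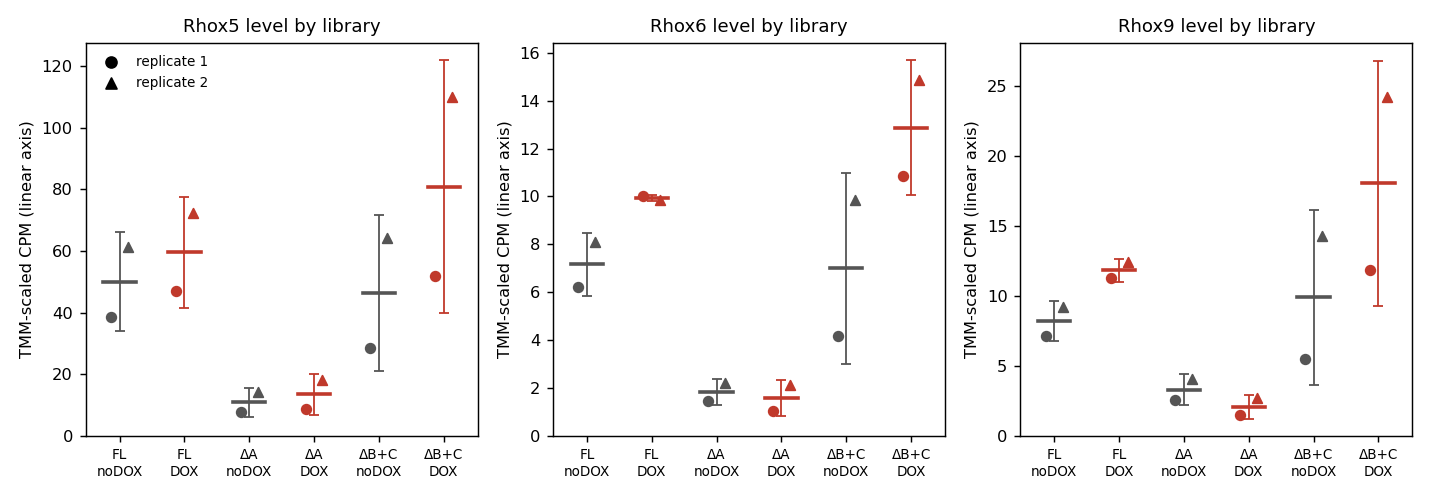
Levels of Rhox5, Rhox6 and Rhox9 in TMM-scaled CPM (linear axis from 0) in the 6 groups; circles are replicate 1, triangles replicate 2, grey is noDOX and red is DOX, and bars give the mean and SD of the 2 replicates. In each panel the 4 Xist ΔA libraries lie below the other 8, and replicate 2 lies above replicate 1 except for Rhox6 in Xist FL DOX.

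A large part of the spread within groups had the same direction in all of them. Rhox5 was higher in replicate 2 than in replicate 1 in all 6 groups, by 1.54-fold to 2.26-fold. Rhox9 was also higher in replicate 2 in each group, by 1.10-fold to 2.61-fold. Rhox6 was higher in replicate 2 in 5 groups, by 1.30-fold to 2.35-fold, and the exception was Xist FL DOX, at 0.981-fold. Over the 12 libraries the log2 levels of the members were correlated with one another, with Pearson r of 0.974 for Rhox5 with Rhox6, 0.959 for Rhox5 with Rhox9 and 0.981 for Rhox6 with Rhox9. These are descriptions, since the libraries share lines and replicate numbers.

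Per kilobase of transcript, Rhox5 was the highest member in each library, at 10.0 to 145.8 CPM per kb. It stood 6.27-fold to 11.4-fold above Rhox6 (median 8.94) and 3.50-fold to 7.90-fold above Rhox9 (median 5.69). Rhox9 was above Rhox6 in every library on this scale, by 1.25-fold to 2.099-fold. Of the counts given to Rhox6 and Rhox9 together, Rhox9 took 53.5% and 53.2% in Xist FL noDOX, with 95% Wilson intervals of 49.3 to 57.6% and 49.2 to 57.1%. Its share in Xist ΔA noDOX was 63.4% (55.8 to 70.4%) in replicate 1 and 64.7% (57.9 to 70.9%) in replicate 2. For the Xist ΔA DOX libraries it was 58.0% (48.2 to 67.2%) and 55.8% (48.0 to 63.4%). With DOX, the Xist ΔB+C libraries had 52.2% (48.9 to 55.4%) in replicate 1 and 62.0% (59.3 to 64.7%) in the low input replicate 2. The other 4 libraries had 52.9 to 59.2%. PCR copies are not independent molecules, and these intervals take in counting error alone.

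To ask whether the lines differed in these genes before induction, the noDOX libraries were compared. Rhox5 and Rhox6 were lower in Xist ΔA than in Xist FL, and no difference between Xist ΔB+C and Xist FL passed for any of the 3 genes. Rhox5 fell by 2.21 on the log2 scale in Xist ΔA (SE 0.57, 95% interval -3.49 to -0.92, adjusted p = 0.0421, edgeR quasi-likelihood test with Benjamini-Hochberg adjustment over 13191 genes). Rhox6 fell by 1.97 (SE 0.45, -2.98 to -0.95, adjusted p = 0.0281). Rhox9 had a log2 (fold change) of -1.31 (SE 0.51, -2.47 to -0.16) and did not pass, with adjusted p = 0.144, but with the replicate block it fell by 1.34 (SE 0.27, adjusted p = 0.00468), as did Rhox5 by 2.24 (adjusted p = 2.17e-06) and Rhox6 by 1.98 (adjusted p = 0.000457). Within the pairs of equal number, Xist ΔA had 0.195-fold and 0.231-fold of the Xist FL level of Rhox5, 0.234-fold and 0.275-fold of Rhox6, and 0.353-fold and 0.444-fold of Rhox9. Of all genes tested, 5.54% were called lower in this comparison and 17.2% with the block, so that these lines differed at many genes. Among 464 X-linked genes other than Xist, whose median was -0.05, Rhox5, Rhox6 and Rhox9 ranked 11, 14 and 23 from the lowest. Leaving out any 1 of the Xist FL noDOX or Xist ΔA noDOX libraries left no member past the threshold without the block, with adjusted p of 0.0934 to 0.192 for Rhox5 and 0.0821 to 0.149 for Rhox6; with the block, all 3 passed whichever of these libraries was left out. When the counts of Rhox6 and Rhox9 were summed, the log2 (fold change) was -1.58 with adjusted p = 0.0692.

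Uninduced Xist itself differed between these lines: it had 6.35 and 8.27 CPM in Xist ΔA noDOX against 2.48 and 3.002 in Xist FL noDOX, a log2 (fold change) of 1.41 (SE 0.24, adjusted p = 0.0101). Its part in the difference of the Rhox genes was not tested. In a bulk sample, fewer cells that express a gene and less of its RNA in each cell cannot be told apart.

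Between Xist ΔB+C and Xist FL no member passed without DOX. The log2 (fold change) was -0.11 for Rhox5 (95% interval -1.32 to 1.10), -0.03 for Rhox6 (-0.98 to 0.92) and 0.27 for Rhox9 (-0.84 to 1.38), each with adjusted p = 1.00 by edgeR. None of the 3 had an unadjusted p under 0.05, none passed with the block, DESeq2 or limma-voom, and 0.0227% of all genes passed (0.993% with the block). With the block the intervals narrowed to -0.46 to 0.10, -0.63 to 0.44 and -0.40 to 0.73. Replicate 1 of Xist ΔB+C noDOX was below replicate 1 of Xist FL noDOX for all 3 genes, and replicate 2 was above its counterpart for all 3.

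Against Xist ΔA, the noDOX libraries of Xist ΔB+C had a log2 (fold change) of 2.097 for Rhox5 (SE 0.57, adjusted p = 0.0608), 1.93 for Rhox6 (SE 0.45, adjusted p = 0.0391) and 1.59 for Rhox9 (SE 0.51, adjusted p = 0.105), so that Rhox6 alone passed by edgeR, where 3.81% of all genes were called higher. With the replicate block all 3 were higher in Xist ΔB+C, with adjusted p of 4.38e-06, 0.000844 and 0.00328, where 15.2% of all genes were called higher. In the pairs, Xist ΔB+C had 3.76-fold and 4.53-fold the Xist ΔA level of Rhox5, 2.87-fold and 4.43-fold of Rhox6, and 2.17-fold and 3.51-fold of Rhox9. Without the block, the call for Rhox6 was lost on leaving out Xist ΔA noDOX replicate 1 (adjusted p = 0.196), Xist ΔA noDOX replicate 2 (0.135) or Xist ΔB+C noDOX replicate 2 (0.198). This comparison and that of Xist ΔA with Xist FL share the Xist ΔA libraries.

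**Figure D2:**
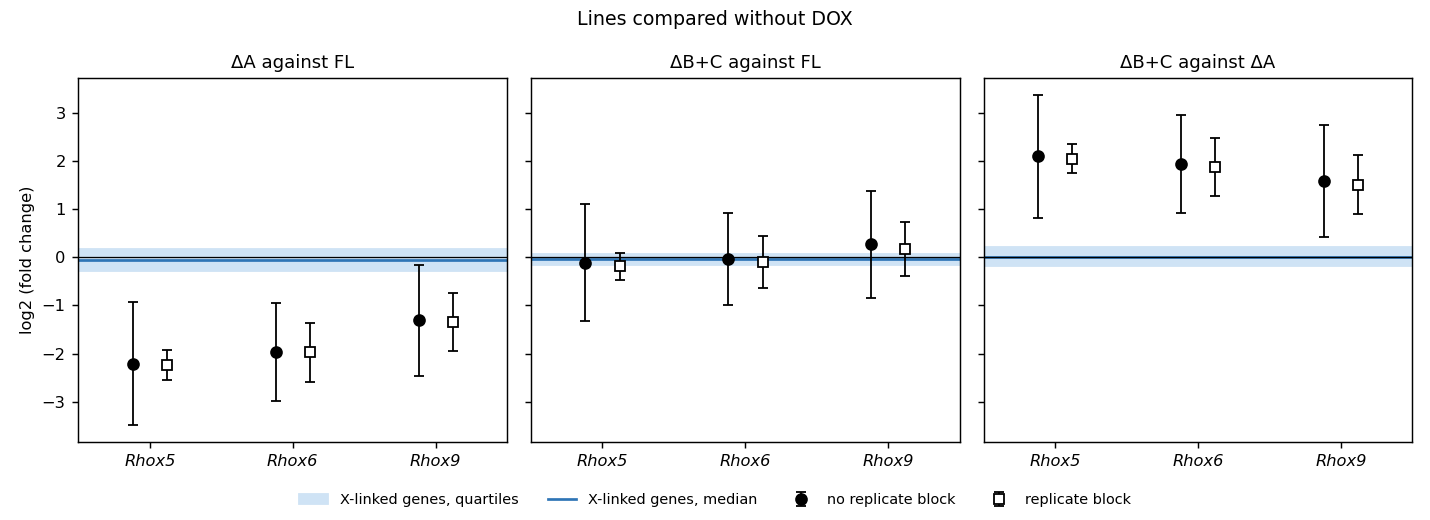
Differences between lines without DOX, as log2 (fold change), for the 3 members without (filled circles) and with (open squares) the replicate block; bars are 95% intervals, and the blue band and line are the quartiles and median of 464 X-linked genes without the block. The members lie below the band in Xist ΔA against Xist FL (-2.21, -1.97 and -1.31), within or near it in Xist ΔB+C against Xist FL, and above it in Xist ΔB+C against Xist ΔA (2.097, 1.93 and 1.59).

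The next question was whether switching on each form of Xist changed the members, since Xist silences genes of the X chromosome. By the paper's RNA FISH counts, only part of the cells of each DOX sample had an Xist-coated X chromosome. That share differed between lines and was highest in Xist ΔB+C, and the values here are not adjusted for it. In Xist FL, all 3 members had higher CPM with DOX than without in both pairs of libraries, and none of these differences passed the test. The DOX and noDOX libraries overlapped for Rhox5 and not for Rhox6 or Rhox9. Rhox5 was 1.21-fold and 1.18-fold in the DOX library of pairs 1 and 2, Rhox6 1.61-fold and 1.22-fold, and Rhox9 1.57-fold and 1.35-fold. The log2 (fold change) was 0.25 for Rhox5 (SE 0.53, 95% interval -0.95 to 1.46, adjusted p = 0.877), 0.47 for Rhox6 (SE 0.42, -0.47 to 1.42, adjusted p = 0.681) and 0.53 for Rhox9 (SE 0.49, -0.57 to 1.64, adjusted p = 0.691). None passed by edgeR, and none had an unadjusted p under 0.05; with the block the adjusted p was 0.198, 0.185 and 0.168, and none passed by DESeq2 or limma-voom either. Of all genes, 1.24% passed, and 13.9% with the block. The X-linked median was -0.85 and 15 of 464 X-linked genes had a log2 (fold change) above 0; in that order Rhox9, Rhox6 and Rhox5 ranked 3, 5 and 10 from the highest. With the block, where the intervals were -0.02 to 0.54 for Rhox5, -0.03 to 1.03 for Rhox6 and -0.01 to 1.11 for Rhox9, each lay above the upper quartile of X-linked genes, at -0.52.

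With induced Xist ΔB+C the members were higher with DOX in both pairs by larger factors. Rhox5 was 1.83-fold and 1.71-fold, Rhox6 2.60-fold and 1.51-fold, and Rhox9 2.16-fold and 1.70-fold. The log2 (fold change) was 0.80 for Rhox5 (SE 0.54, 95% interval -0.41 to 2.02, adjusted p = 0.468), 0.88 for Rhox6 (SE 0.42, -0.07 to 1.83, adjusted p = 0.304) and 0.87 for Rhox9 (SE 0.49, -0.24 to 1.98, adjusted p = 0.385). None of the 3 passed by edgeR without the block, none had an unadjusted p under 0.05, and none passed by DESeq2 or limma-voom, where 2.94% of all genes passed by edgeR. With the replicate block all 3 rose: Rhox5 by 0.81 (SE 0.13, adjusted p = 0.00179), Rhox6 by 0.94 (SE 0.24, adjusted p = 0.0188) and Rhox9 by 0.90 (SE 0.25, adjusted p = 0.0284), with 9.89% of all genes called higher in that fit. Rhox6, Rhox9 and Rhox5 ranked 1, 2 and 4 from the highest among the 464 X-linked genes, whose median was -0.78. In the fit with the block, 4 X-linked genes other than Xist were called higher in Xist ΔB+C, namely the 3 members and Eda2r, an ectodysplasin receptor (log2 (fold change) 0.39, adjusted p = 0.0291; named after its value was seen), against 351 called lower; in Xist FL the numbers were 0 and 374.

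The block call in Xist ΔB+C held in part when libraries were left out. Without the low input library, Xist ΔB+C DOX replicate 2, Rhox5 passed (0.70, adjusted p = 0.0276), and Rhox6 (1.01, adjusted p = 0.0885) and Rhox9 (0.70, adjusted p = 0.209) did not. Leaving out Xist ΔB+C noDOX replicate 1 gave Rhox5 alone as well (0.66, adjusted p = 0.0212), with adjusted p = 0.146 for Rhox6 and 0.163 for Rhox9. Without Xist ΔB+C DOX replicate 1, Rhox5 and Rhox9 passed and Rhox6 had adjusted p = 0.0835; without Xist ΔB+C noDOX replicate 2 all 3 passed. Over these fits Rhox5 ranged from 0.66 to 0.99, Rhox6 from 0.58 to 1.40 and Rhox9 from 0.56 to 1.35; without the block the ranges were 0.16 to 1.51, 0.39 to 1.62 and 0.26 to 1.72. The fits that join the block with a left-out library were added after the data had been seen.

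In Xist ΔA the members did not share a direction. Rhox5 was 1.16-fold and 1.27-fold in the DOX library of each pair, Rhox6 0.720-fold and 0.951-fold, and Rhox9 0.573-fold and 0.656-fold. The log2 (fold change) was 0.30 for Rhox5 (95% interval -0.96 to 1.56), -0.22 for Rhox6 (-1.28 to 0.83) and -0.68 for Rhox9 (-1.89 to 0.52), each with adjusted p = 1 by edgeR and none under 0.05 before adjustment. With the block the adjusted p was 0.943, 0.964 and 0.943, and none passed by DESeq2 or limma-voom. Here 0.00758% of all genes passed, which was Xist alone (0.0227% with the block), and the X-linked median was -0.14. Rhox5 ranked 5, Rhox6 291 and Rhox9 419 from the highest of the 464 X-linked genes.

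**Figure D3:**
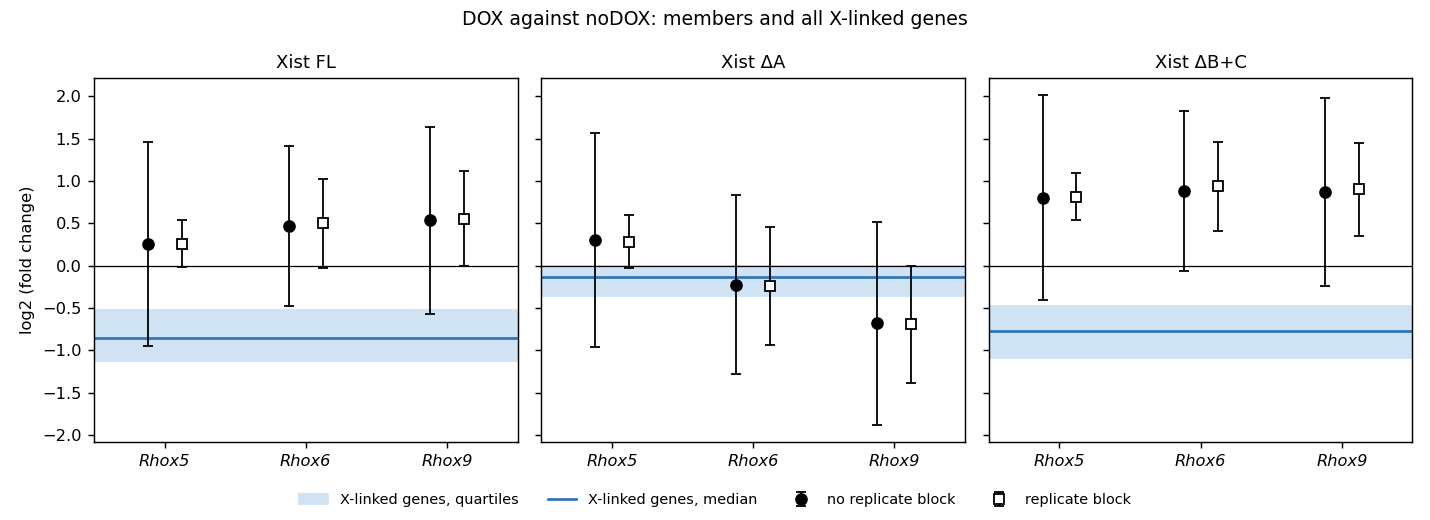
DOX against noDOX in each line, as log2 (fold change), for the 3 members without (filled circles) and with (open squares) the replicate block; bars are 95% intervals, and the blue band and line are the quartiles and median of 464 X-linked genes without the block. In Xist FL and Xist ΔB+C the members lie above 0 and the X-linked medians lie at -0.85 and -0.78; in Xist ΔA the members lie at 0.30, -0.22 and -0.68.

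The differences between lines in the DOX response were tested as such. None of the members passed in any of the 3 comparisons of responses by edgeR, where 0% of genes passed for Xist ΔA against Xist FL, 0% for Xist ΔB+C against Xist FL and 0.205% for Xist ΔB+C against Xist ΔA, and no member had an unadjusted p under 0.05 or passed by DESeq2 or limma-voom. The response of Rhox9 was higher in Xist ΔB+C than in Xist ΔA by 1.55 on the log2 scale (SE 0.72, 95% interval -0.08 to 3.19, adjusted p = 0.438). With the replicate block this difference was 1.60 (SE 0.39, adjusted p = 0.0353), where 4.23% of all genes were called higher. It did not pass with the block when Xist ΔB+C DOX replicate 2, Xist ΔB+C noDOX replicate 1 or any 1 of the 4 Xist ΔA libraries was left out. For Rhox6 the same difference was 1.10 (adjusted p = 0.547; 0.0866 with the block) and for Rhox5 0.50 (adjusted p = 0.856; 0.106 with the block). Between Xist ΔB+C and Xist FL the responses differed by 0.55 for Rhox5 (-1.16 to 2.26), 0.41 for Rhox6 (-0.93 to 1.74) and 0.33 for Rhox9 (-1.23 to 1.90), each with adjusted p = 1.00, and no gene passed with the block either. Between Xist ΔA and Xist FL they differed by 0.05 for Rhox5, -0.70 for Rhox6 and -1.22 for Rhox9, with adjusted p of 0.993, 0.891 and 0.775, and of 0.949, 0.320 and 0.120 with the block, where 3.31% of all genes passed. The comparisons of responses share libraries pairwise.

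The genes around the cluster gave the local background. The Rhox symbols span chrX:37213804-38129966, 916 kb, and 38 other genes in the count files start within 2 Mb of this span, of which 24 were tested. The median of all tested genes lay between -0.0072 and 0.0081 in the 9 comparisons. In Xist FL, 3 of the 24 fell with DOX and none rose (18 fell with the block), all 24 had a log2 (fold change) below 0, and their median was -0.80. Of the 464 X-linked genes 27.2% were called lower, and 80.6% with the block. With Xist ΔB+C, 5 fell and none rose (19 fell with the block), 23 were below 0, and the median was -0.68, with 34.3% of X-linked genes called lower and 75.6% with the block. In Xist ΔA, none passed by edgeR (3 had an unadjusted p under 0.05; none passed with the block, DESeq2 or limma-voom), and the median was -0.07. Sept6, which encodes a septin, fell from 41.3 and 46.8 CPM to 18.5 and 19.14 in Xist FL (log2 (fold change) -1.23, adjusted p = 0.00349) and from 40.5 and 44.9 CPM to 18.3 and 18.9 in Xist ΔB+C (-1.20, adjusted p = 0.00255). Nkrf, a repressor of NF-κB target genes, fell by 0.77 in Xist FL (adjusted p = 0.034) and by 0.88 in Xist ΔB+C (adjusted p = 0.0136). Zcchc12 fell by 1.37 in Xist FL (adjusted p = 0.043), and Slc25a5, a mitochondrial ADP/ATP carrier, fell by 0.87 in Xist ΔB+C (adjusted p = 0.0135). For the members in the same libraries the log2 (fold change) was 0.25 to 0.53 in Xist FL and 0.80 to 0.88 in Xist ΔB+C.

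**Figure D4:**
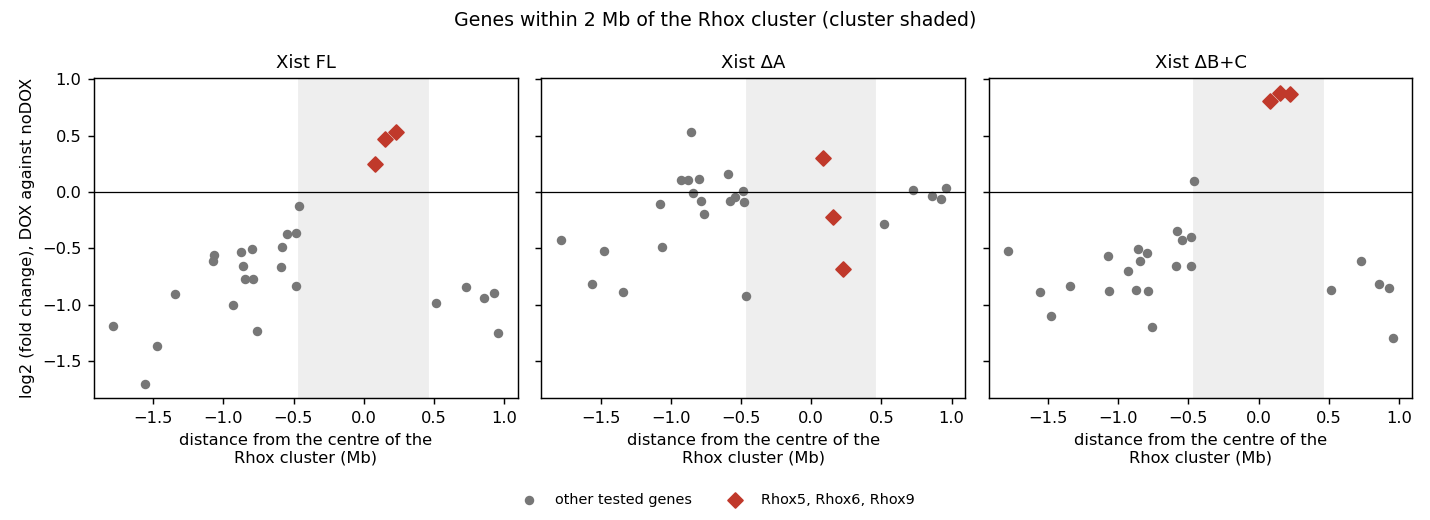
Log2 (fold change) of DOX against noDOX, without the block, against the distance of a gene's start from the centre of the Rhox cluster in Mb, for the 24 tested genes within 2 Mb (grey) and the 3 members (red); the cluster is shaded, and the other Rhox genes are not drawn. In Xist FL and Xist ΔB+C the members lie above 0 while 24 and 23 of the 24 other genes lie below it.

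Lower levels in Xist ΔA without DOX, as in the members, were also seen among the neighbours. Gm9, a predicted gene at chrX:37208502-37211041 beside the end of the cluster, had 1.24 and 2.497 CPM in Xist FL noDOX, 0.794 and 1.10 in Xist ΔB+C noDOX, and 0.0729 and 0.154 in Xist ΔA noDOX. It reached 1 CPM in 6 libraries, all of Xist FL or Xist ΔB+C, and so was kept through the groups where it is high; its values are therefore given without a test. Mdrl (log2 (fold change) -0.95) and Lamp2 (-0.57), named after their values were seen, did not pass in Xist ΔA against Xist FL without the block. With the block both were lower (adjusted p = 0.0138 and 0.00259), where 17.2% of all genes were called lower. The median of the 24 was -0.20 in Xist ΔA against Xist FL and 0.05 in Xist ΔB+C against Xist ΔA.

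Genes that write, read or remove DNA methylation and repressive chromatin marks were followed as a list of 18, all tested, because Rhox promoters are known targets of these systems. None passed in the DOX comparisons by edgeR: 3 had an unadjusted p under 0.05 with Xist FL, 4 with Xist ΔB+C and 0 with Xist ΔA, and DESeq2 called 1, 1 and 0 and limma-voom 0 throughout. With the block, 4 were higher in Xist FL, where 5.72% of all genes were called higher, among them the methylcytosine dioxygenase Tet1 (adjusted p = 0.00385) and the DNA methyltransferase Dnmt3a (adjusted p = 0.00899), and 2 were higher and 3 lower in Xist ΔB+C, with Tet1 and Dnmt3a again the higher ones and Hells, a chromatin remodeller needed for DNA methylation, among the lower (adjusted p = 0.0105), where 9.89% of all genes were called higher and 12% lower. These genes were named after their values were seen. Without DOX, 3 of the 18 were higher in Xist ΔA than in Xist FL and none lower, with a list median of 0.33 (10 higher with the block), where 4.3% of all genes were called higher (16.2% with the block). Tet1 had 125 and 132 CPM in Xist FL noDOX and 245 and 311 in Xist ΔA noDOX (log2 (fold change) 1.11, SE 0.17, adjusted p = 0.00617), Tet3, of the same family, rose by 0.75 (adjusted p = 0.0408), and Max, the partner of Myc and Mga, by 0.32 (adjusted p = 0.039). In Xist ΔB+C against Xist ΔA, Tet1 fell by 0.95 (adjusted p = 0.0164) and Max fell by 0.41 (adjusted p = 0.0245), and 7 of the 18 were lower with the block; of all genes 2.87% were called lower, and 12.8% with the block. Between Xist ΔB+C and Xist FL none passed without the block, where none had an unadjusted p under 0.05, and 1 was higher with it.

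Germline genes whose promoters are methylated in somatic cells, as those of Rhox genes are, made up a list of 18, of which 15 were tested. None passed in any of the 9 comparisons by edgeR or limma-voom. With DOX, 0 of the 15 had an unadjusted p under 0.05 with Xist FL and 1 with Xist ΔB+C, and none passed by DESeq2. With the block, 3 were higher in Xist FL (Hormad1, Sohlh2 and Fkbp6, with adjusted p of 0.01, 0.0347 and 0.0242) and 4 in Xist ΔB+C (the same genes with 0.00224, 0.00339 and 0.0131, and Mov10l1 with 0.0405), all named after their values were seen, against 5.72% and 9.89% of all genes called higher in these fits. Hormad1 and Sohlh2 act in meiosis and early germ cell differentiation. Without DOX, 3 had an unadjusted p under 0.05 in Xist ΔA against Xist FL, DESeq2 called 2, and with the block 4 were higher and 2 lower (16.2% and 17.2% of all genes), the list median being 0.25. Comparing Xist ΔB+C with Xist ΔA, 6 had an unadjusted p under 0.05, DESeq2 called 2, and with the block 2 were higher and 6 lower (15.2% and 12.8% of all genes). In the former comparison the members had values of -2.21 to -1.31. Factors known to bind the distal promoter of Rhox5, Ets family members and Sp factors (8 genes, all tested), gave no call by edgeR in any comparison, with 0 to 1 at an unadjusted p under 0.05, 0 to 2 with the block, 0 to 1 by DESeq2 and 0 by limma-voom; their medians were -0.12 for Xist FL and -0.10 for Xist ΔB+C with DOX, and 0.13 for Xist ΔA against Xist FL without DOX.

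Markers of cells in which Rhox genes are also on were summed in each library. The 8 trophoblast markers summed to 105 CPM in both Xist FL noDOX libraries and to 83.1 and 102 in Xist ΔB+C noDOX, against 48.7 and 56.9 in Xist ΔA noDOX. With DOX the sums were 51.0 and 77.0 CPM for Xist FL, 65.1 and 75.4 CPM for Xist ΔB+C, and 54.4 and 56.1 CPM for Xist ΔA. The sum was therefore lower in Xist ΔA without DOX, as the members were. With DOX it was lower for Xist FL and Xist ΔB+C, where the members were not. Eomes fell in both pairs of each of these lines, and in Xist ΔB+C by more than the sum did. By their median over libraries, Eomes (27.8 CPM) and Tfap2c (18.8 CPM) were the most abundant of them. Eomes, a T-box factor of trophoblast and early mesendoderm, fell with DOX by 1.59 in Xist FL (adjusted p = 0.0427) and by 1.38 in Xist ΔB+C (adjusted p = 0.0431). It was lower in Xist ΔA than in Xist FL without DOX (log2 (fold change) -1.28, adjusted p = 0.0279). In each of these comparisons 1 of 7 tested markers passed by edgeR. Of all genes, 1.24% and 2.94% passed with DOX, and 5.54% were called lower in Xist ΔA. With the block, 1 marker was lower with DOX in Xist FL (13.9% of all genes passed). In Xist ΔB+C 1 was higher and 1 lower (9.89% and 12%). Without DOX, 2 were lower in Xist ΔA than in Xist FL (17.2%) and 3 higher in Xist ΔB+C than in Xist ΔA (15.2%). With DOX, Eomes went from 61.2 and 72.1 CPM to 25.1 and 19.0 for Xist FL. For Xist ΔB+C it went from 58.9 and 45.2 CPM to 25.5 and 14.4. The median log2 (fold change) of the 7 tested markers with DOX was -0.09 and -0.15 for these lines. For either line, 3 of the 7 were above 0 and 4 below. Without DOX, all 7 were below 0 in Xist ΔA against Xist FL. Elf5, which defines trophoblast stem cells, had 0 to 0.221 CPM. The part of these cells in the members' levels was not tested.

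The 6 primitive endoderm markers summed to 8.67 to 9.43 CPM in Xist FL noDOX, 9.78 to 14.1 in Xist FL DOX, 12.5 to 15.6 in Xist ΔA noDOX, 11.9 to 13.8 in Xist ΔA DOX, 13.5 to 18.7 in Xist ΔB+C noDOX and 20.1 to 26.6 in Xist ΔB+C DOX. None passed by edgeR in any comparison, with 0 to 3 at an unadjusted p under 0.05, 0 to 2 with the block, 0 to 1 by DESeq2 and 0 by limma-voom. For Xist FL and Xist ΔB+C the sum was higher with DOX without overlap, as Rhox6 was. The 5 germ cell markers summed to 63.9 to 69.4 CPM in Xist FL noDOX, 72.4 to 76.2 in Xist FL DOX, 49.8 to 52.6 in Xist ΔA noDOX, 50.9 to 51.9 in Xist ΔA DOX, 55.1 to 67.6 in Xist ΔB+C noDOX and 67.3 to 72.5 in Xist ΔB+C DOX. Among them, Dppa3, a maternal and germ cell factor that protects DNA from demethylation and is also expressed in naive ES cells, had 11.7 and 13.1 CPM in Xist FL noDOX, 11.2 and 13.7 in Xist ΔB+C noDOX and 1.87 and 2.87 in Xist ΔA noDOX. It was lower in Xist ΔA than in Xist FL (log2 (fold change) -2.39, adjusted p = 0.000603). Dppa3 was the only 1 of the 5 to pass, where 5.54% of all genes were called lower, and the median of the 5 was -0.33. It was also higher in Xist ΔB+C than in Xist ΔA (2.40, adjusted p = 0.000701), again as 1 of the 5, where 3.81% of all genes were called higher.

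The 8 ES cell markers summed to 1936 to 2280 CPM in Xist FL noDOX, 2229 to 2589 in Xist FL DOX, 2219 to 2869 in Xist ΔA noDOX, 2352 to 3047 in Xist ΔA DOX, 1908 to 2443 in Xist ΔB+C noDOX and 1971 to 2831 in Xist ΔB+C DOX, with overlap in every line. Pou5f1, at a median of 1478 CPM, made up much of these sums. With DOX the median log2 (fold change) of the 8 markers was 0.56 for Xist FL and 0.70 for Xist ΔB+C, with 6 of 8 above 0 in each, and 0.05 for Xist ΔA, with 4 of 8 above 0. Without DOX it was 0.63 in Xist ΔA against Xist FL, where the members had negative values. None passed by edgeR, DESeq2 or limma-voom in any comparison, with 0 to 2 at an unadjusted p under 0.05. With the block, DOX raised 1 of the 8 for Xist FL and 2 for Xist ΔB+C, where 5.72% and 9.89% of all genes were called higher. Without DOX, 2 were higher and 1 lower with the block in Xist ΔA than in Xist FL (16.2% and 17.2% of all genes). In Xist ΔB+C against Xist ΔA, 1 was lower with the block (12.8% of all genes). The response of Xist ΔB+C minus Xist ΔA was higher for 1 marker with the block (4.23% of all genes). The 4 markers of formative or primed cells summed to 1460 to 1684 CPM in Xist ΔB+C noDOX and 1095 to 1277 in Xist ΔB+C DOX. There Fgf5, a marker of cells leaving the ES cell state, fell by 1.48 (adjusted p = 0.0434), as 1 of the 4, where 2.94% of all genes passed. In Xist FL the sums of the 4 markers overlapped (1495 to 1819 and 1369 to 1732), as in Xist ΔA (1846 to 2129 and 1833 to 2074). Dnmt3b, at a median of 1245 CPM, made up much of these sums. Fgf5 was also lower with DOX in Xist FL, from 43.0 and 62.4 CPM to 23.4 and 25.8, but did not pass by edgeR. DESeq2 called 1 of the 4 in Xist FL. With the block, 1 of the 4 was higher and none lower with DOX in Xist FL, where 5.72% of all genes were called higher. In Xist ΔB+C 2 were lower with the block (12% of all genes). Without DOX, 2 were higher with the block in Xist ΔA than in Xist FL (16.2%). In Xist ΔB+C against Xist ΔA, 2 were lower with it (12.8%). In Xist ΔA, Fgf5 had 74.7 and 43.8 CPM without DOX and 78.6 and 47.0 with it. The 5 fibroblast markers summed to 9.79 to 45.5 CPM in the Xist FL libraries of both conditions, 16.5 to 32.9 in those of Xist ΔB+C and 5.22 to 10.1 in those of Xist ΔA, with no call by edgeR, DESeq2 or limma-voom, 0 to 2 at an unadjusted p under 0.05 and 0 to 1 with the block. What part these shifts have in the results for Rhox5, Rhox6 and Rhox9 was not tested.

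The genes whose log2 levels followed the members most closely over the 12 libraries lay on other chromosomes. For Rhox5 they were LOC105246506 (chromosome 18, Pearson r = 0.990), Arl14epl (chromosome 18, r = 0.988) and Hexdc, a hexosaminidase gene (chromosome 11, r = 0.983). For Rhox6 they were Arl14epl (r = 0.982), LOC105246506 (r = 0.980) and Sfi1, which encodes a centrin-binding protein (chromosome 11, r = 0.975). For Rhox9 they included Lama3, a laminin chain (chromosome 18, r = 0.971), and Vps39, a vesicle tethering protein (chromosome 2, r = 0.967). Arl14epl had 11.1 and 17.1 CPM in Xist FL noDOX, 14.9 and 19.3 in Xist FL DOX, 1.39 and 3.55 in Xist ΔA noDOX, 1.22 and 3.73 in Xist ΔA DOX, 7.63 and 15.3 in Xist ΔB+C noDOX, and 15.1 and 24.1 in Xist ΔB+C DOX. It thus repeated the low Xist ΔA levels, the higher replicate 2 and the highest level in Xist ΔB+C DOX. With Spearman's rho in place of Pearson's r, 2, 0 and 1 of the 3 closest genes of Rhox5, Rhox6 and Rhox9 stayed among the closest 3. The libraries share lines and replicate numbers, and the correlations are descriptions.

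Of the remaining 28 Rhox symbols most had few counts, with Rhox13 as the exception. The members held 87.2% of all counts given to Rhox genes, and Rhox5 alone 64.2%. Of the 28, Rhox1 (6 to 68 counts in a library) and Rhox13 (130 to 373 counts) reached 1 CPM in at least 6 libraries. Rhox13 did so in all 12, and its 2606 counts over the libraries were near the 2897 of Rhox6. In contrast, 7 had no count in any library, and a further 6 never reached 3 counts, which allows a level of up to 0.0727 to 0.0957 CPM for a gene with no count, depending on the library. The other 13 lay between, the highest being Rhox2a at 1 to 56 counts.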

How the data were processed

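RNA-seq counts of 12 libraries (6 groups of 2, by the sample labels) were analysed. The authors mapped 150-base read pairs to mm10 with TopHat 2.1.0, keeping 1 site per read, with the refFlat annotation, and counted exonic pairs per gene with featureCounts 1.5.1; the deposited values are raw counts, with no strand option given, so that overlapping antisense RNA cannot be told apart.

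A gene was tested if 6 or more libraries had 1 CPM or more (13191; 464 X-linked without Xist). CPM were scaled by TMM factors of expressed autosomal genes (0.978 to 1.02). All 12 libraries entered 1 edgeR 4.0.16 quasi-likelihood fit of 6 group means (R 4.3.3; Benjamini-Hochberg over all genes, threshold 0.05), checked on simulated counts. The replicate numbers in the labels pair the libraries: deviations of same-numbered libraries correlated at r = 0.399 to 0.820 (mean 0.625) over 15 pairs of groups. Alternatives were this block, DESeq2 1.42.0, limma-voom (limma 3.58.1), other scalings, filters and library sets; those that sum Rhox6 and Rhox9, and those that join the block with a left-out library, were added after seeing the data. Correlations used log2 (CPM + 0.5). Depth was 31337490 to 41240470 counts; 3 counts, 0.0727 to 0.0957 CPM, were taken as the floor.

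The members and lists were chosen with earlier results of these data known. Named genes are the members, the 3 genes most correlated with each (1 of them is not reported here), the 3 smallest p per list and comparison among genes past the threshold, and Xist; others are said to be named after their values. Positions and sequences come from RefSeq GRCm38.p6 and GENCODE vM21 transcripts; figures were drawn with matplotlib 3.10.9. For replicate 1 of Xist ΔB+C without DOX the file carries a DOX name, but its labels say noDOX and its Xist count is 96.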

Additional observations from a re-analysis of the deposited data

Results flagged for a closer look

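Rhox6 and Rhox9 had lower CPM with DOX than without in both pairs of Xist ΔA libraries and higher CPM with DOX in both pairs of the other two lines. These opposite directions singled them out, and the differences were tested as differences of responses in the edgeR fit. For Xist ΔA minus Xist FL the difference in log2 (fold change) was -0.70 for Rhox6 (adjusted p = 0.891; 0.320 with the replicate block) and -1.22 for Rhox9 (adjusted p = 0.775; 0.120 with the block). For Xist ΔB+C minus Xist ΔA it was 1.10 for Rhox6 (adjusted p = 0.547; 0.0866 with the block) and 1.55 for Rhox9 (adjusted p = 0.438; 0.0353 with the block). Of these 4 differences, that of Rhox9 between Xist ΔB+C and Xist ΔA passed, with the block only. The Xist ΔA libraries had 42 to 72 counts of Rhox6 and 58 to 132 of Rhox9.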

How the results depend on the processing

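Leaving the block aside, no call changed in Xist FL or Xist ΔA with DOX, in the responses of Xist ΔA or Xist ΔB+C against Xist FL, or in Xist ΔB+C against Xist FL without DOX, under any alternative. With the replicate block, 3 members passed in Xist ΔB+C with DOX against 0 without it (1 to 3 when the block was joined with leaving out 1 library of this line, 0 when libraries were left out without the block), 1 against 0 in the response of Xist ΔB+C minus Xist ΔA (0 to 1), and 3 against 1 in Xist ΔB+C against Xist ΔA without DOX, where DESeq2 also called 3 and limma-voom and the libraries of the compared lines alone called 0 (0 to 3 with 1 library left out). In Xist ΔA against Xist FL without DOX, limma-voom and the absence of a filter on low counts called 1 in place of 2, and leaving out 1 library gave 0 without the block and 3 with it. The cause of these changes was not tested, other than that each left-out fit has fewer samples.

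Values of the sign opposite to the reported one arose only for members that did not pass. With DOX and 1 library left out, Rhox5 ranged from -0.093 to 0.63 in Xist FL and from -0.31 to 0.82 in Xist ΔA, and Rhox6 from -0.80 to 0.21 in Xist ΔA. The response of Xist ΔA minus Xist FL ranged from -0.56 to 0.57 for Rhox5, and with the block joined it turned to -0.13, -0.14 and -0.056. That of Xist ΔB+C minus Xist FL ranged from -0.089 to 1.26 for Rhox5, -0.085 to 1.15 for Rhox6 and -0.27 to 1.18 for Rhox9, and that of Xist ΔB+C minus Xist ΔA from -0.14 to 1.21 for Rhox5. In Xist ΔB+C against Xist FL without DOX the ranges were -0.82 to 0.36 for Rhox5, -0.78 to 0.46 for Rhox6 and -0.58 to 0.81 for Rhox9; with the block joined, Rhox6 turned to 0.0041 and 0.26 and Rhox9 to -0.064 and -0.28, and summing Rhox6 and Rhox9 gave 0.14. Over all alternatives, the flanking genes past the threshold numbered 0 to 18 in Xist FL with DOX and 0 to 20 in Xist ΔB+C with DOX, and the chromatin genes 0 to 10 in Xist ΔA against Xist FL without DOX. With 2 libraries a group, a left-out fit assumes that the lone library varies like the other groups.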
